A study of Mus musculus with 14 samples.

Results

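Retinal microglia of mice with the genotype APOE E4/E4 were compared with those of mice with the genotype APOE E3/E3 after a microbead injection. The comparison took every library that the labels name as microbead-injected: 3 of APOE4 and 3 of APOE3, which is 6 of the 14 libraries of the series. The other 8 were sham-injected, 4 of each genotype, and serve here as the genotype difference without microbeads. All groups shared mice aged 12 weeks, the retina as tissue and a sort that kept Fcrls+ CD11b+ Ly6c- cells. Each library is labelled as 1 retina, of which 100 to 600 cells were collected. The labels call the microbead libraries a glaucoma model. They do not say how the APOE alleles were made, how long after injection the eyes were taken, what the mice's sex was, or whether each retina is of another animal. The p-values therefore measure only how far these libraries differ from each other, which may be technical.

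Microglia are the resident macrophages of the retina. In the healthy tissue they hold a homeostatic programme that includes the purinergic receptor P2ry12 and the transcription factor Sall1 and that depends on TGF-beta signals. Near dying neurons they lower that programme and raise a disease-associated one, with galectin-3 (Lgals3), osteopontin (Spp1) and Gpnmb among its genes. APOE is the lipid carrier protein whose E4 allele is the main common genetic risk factor for Alzheimer's disease. Beads injected into the front of the eye block outflow of fluid and raise the eye pressure, which damages retinal ganglion cells.

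After microbeads, APOE4 microglia held more RNA of homeostatic genes than APOE3 microglia, among them P2ry12, Siglech, Serpine2 and Sall1. They held less RNA of the MHC class II genes H2-Aa, H2-Ab1 and H2-Eb1, of the ferritin genes Fth1 and Ftl1, of 4 enzymes of glycolysis and of genes of the actin cytoskeleton. At an adjusted p under 0.05 in edgeR's quasi-likelihood test, 44 of 7609 genes tested differed, which is 0.578%. Of these, 17 were higher in APOE4 (0.223%) and 27 lower (0.355%), and 39 of the 44 differed at least 2-fold. The median log2 fold change was 1.25 among the higher and -2.21 among the lower genes, the latter also with the genes listed at 0 in APOE4 set to their bounds. In bulk RNA of sorted cells, fewer cells of a kind and less RNA per cell cannot be told apart.

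The count of 44 depends on single libraries. It was 19 without APOE3 microbead library 1, 16 without APOE3 library 2, 121 without APOE3 library 3, 11 without APOE4 library 1, 46 without APOE4 library 2 and 12 without APOE4 library 3. Without both APOE3 microbead libraries 1 and 2 it was 2. No called gene changed its direction in any alternative setting in which it was tested, 25 to 29 of 29 per gene. With library totals as scaling, 14 genes were called, 3 higher and 11 lower, against 17 and 27 with the scaling used here.

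**Figure D1:**
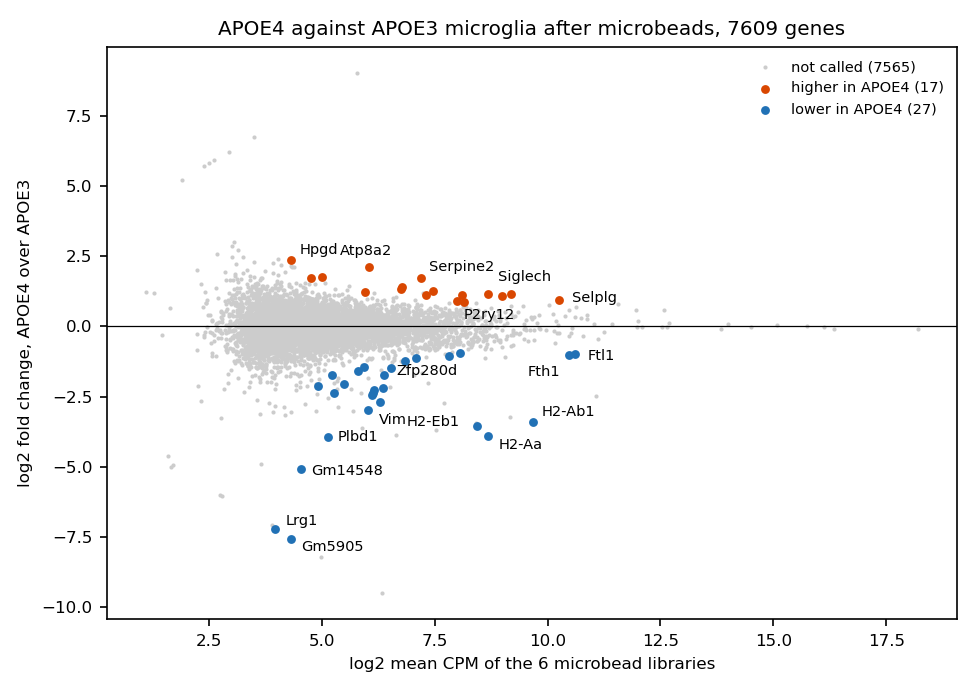
Each point is 1 of 7609 genes, with the log2 mean CPM (normalised counts, scaled to equal library size) of the 6 microbead libraries on the x axis and the log2 fold change of APOE4 over APOE3 on the y axis. The 17 called higher genes (orange) lie between 0.87 and 2.37, while the 27 called lower genes (blue) reach below -5, where fitted values of Lrg1 and Gm5905 rest on APOE4 libraries at 0 and are not sizes.

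Library depth and purity set limits to these values. Estimated reads assigned to genes ranged from 451287 to 727726 per library, and 12 satellite-repeat genes took 38.5% to 65.3% of them, leaving 226374 to 447190 reads elsewhere. On the first principal component, 17.1% of the variance, APOE3 microbead libraries lay at 49.9, 33.9 and 19.1, APOE4 microbead libraries at -2.77, 7.94 and 3.08, and sham libraries between -19.1 and -8.17. The sort genes were present in all 6 microbead libraries: Fcrls, the surface protein used in the sort, had a log2 fold change of -0.28 ± 0.26 (adjusted p = 0.854), and Itgam, which encodes CD11b, by 0.20 (adjusted p = 0.897). Mouse Apoe, the only Apoe gene in the transcript set, was too low to test: it had 7, 11 and 9 reads in the APOE3 and 4, 3 and 1 reads in the APOE4 microbead libraries, so the alleles under study were not checked by these data.

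Transcripts of another myeloid cell moved with the genotype. The monocyte marker list (15 genes, among them Ccr2, Chil3 and Fn1) summed to 1829.5, 964 and 398 CPM (read counts after TMM scaling) in APOE3 microbead libraries 1 to 3 and to 103, 314 and 154 CPM in APOE4 libraries. All 3 APOE3 values stood above all APOE4 ones, and the sham libraries lay between 71.1 and 150.3 CPM. Of the 15 genes, 14 had a higher mean in APOE3, none was at 0 in all microbead libraries, and Ly6c2, a defining monocyte gene that the sort selects against, had 1, 2 and 1 reads in APOE3 and 0, 0 and 1 in APOE4. Fibronectin (Fn1), an extracellular matrix protein, gave 1318, 335 and 236 CPM in APOE3 and 6.05, 139.5 and 24.2 in APOE4 (log2 fold change -3.43 ± 0.90, adjusted p = 0.166). It made up most of the sum in APOE3 library 1. Apart from Fn1, the list summed lower in APOE3 library 3 than in APOE4 library 2, so that the genotypes overlapped. Without it, APOE3 library 2 and not library 1 had the highest sum. With the summed level of this list as a covariate in the same fit, no gene passed in edgeR and 300 had an unadjusted p under 0.05. The 44 genes all kept their sign there, with the median size of the log2 fold change going from 1.73 to 0.91, and the covariate widens the standard error of the contrast by a factor of 1.72. The part of monocyte-derived RNA in each difference below was not tested.

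Receptors, secreted proteins and a transcription factor of homeostatic microglia were among the genes higher in APOE4. Of 48 tested members of the homeostatic list (50 genes), 8 rose and none fell, against 0.223% higher and 0.355% lower among all genes tested. Of the 48, 42 had a positive log2 fold change and the median was 0.52, against 0.00 over all genes tested. In 26 of the 48, all APOE4 libraries stood above all APOE3 libraries, and in 1 they stood below, against 7.36% and 7.19% of all genes tested. The summed CPM of the list was 16373, 22028 and 27083 in APOE3 and 33405, 32970.1 and 34513 in APOE4 microbead libraries, where sham libraries ranged from 35819 to 44257. The 3 APOE4 libraries thus stayed closer to sham than any APOE3 library. APOE3 libraries with the higher monocyte sums had the lower homeostatic sums, though apart from Fn1 library 2 had the highest monocyte sum. Without single microbead libraries, 2 to 14 members were called, the fewest without APOE4 library 1, and without both APOE3 libraries 1 and 2 none was called (median 0.26). With the monocyte covariate none was called either, and the median was 0.04.

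P2ry12, the receptor with which microglia sense ADP, gave 167, 211 and 382 CPM in APOE3 and 577, 549.8 and 584 in APOE4 microbead libraries. The groups did not overlap, and the log2 fold change was 1.17 ± 0.23 (SE, adjusted p = 0.00967). Both lay below the sham means of 897 in APOE3 and 765 in APOE4. Siglech, a lectin that binds sialic acid and marks microglia, gave 299, 284 and 488 CPM in APOE3 and 884, 741 and 789.7 in APOE4, which differed by 1.17 ± 0.20 on the log2 scale (adjusted p = 0.00383). Here the APOE4 libraries sat at the level of sham, whose means were 809 and 905. Gpr34, a receptor for lysophosphatidylserine, gave 38.4, 126 and 142 CPM in APOE3 and 272, 241 and 232 in APOE4 (log2 fold change 1.25 ± 0.28, adjusted p = 0.0277). Its lowest value stood in APOE3 library 1, the library with the highest monocyte sum when Fn1 is counted.

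Serpine2, a secreted inhibitor of serine proteases, gave 61.1, 51.2 and 90.6 CPM in APOE3 and 256, 164 and 254 in APOE4 (log2 fold change 1.74 ± 0.26, adjusted p = 0.000773). No APOE3 library reached the lowest APOE4 one, and both sham means, 237 and 211, were near the APOE4 level. Slco2b1, an organic anion transporter, gave 258, 308 and 417 CPM in APOE3 and 749, 641 and 681 in APOE4 (1.07 ± 0.20, adjusted p = 0.00518). Selplg, the ligand of P-selectin, gave 606, 887 and 1012 CPM in APOE3 and 1429, 1719 and 1678 in APOE4 (0.94 ± 0.20, adjusted p = 0.0177). Cd33, an inhibitory sialic acid receptor, was higher with a log2 fold change of 0.87 (adjusted p = 0.0474), the weakest of the 8, and lost its call in 20 of 29 alternatives. Tmem119, a membrane protein of microglia, overlapped between groups: 498, 712 and 1117 CPM in APOE3 and 971, 1413 and 1543 in APOE4 (0.75 ± 0.23, adjusted p = 0.152).

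Sall1, the transcription factor that maintains microglial identity, gave 106, 99.0 and 92.3 CPM in APOE3 and 268, 154 and 230 in APOE4 (log2 fold change 1.13 ± 0.23, adjusted p = 0.0140). With the monocyte covariate the log2 fold change was 0.69 and did not pass (adjusted p = 0.99, and from 0.00082 to 1 over all alternatives). Tgfbr1, the type I receptor for TGF-beta, had a log2 fold change of 0.61 and did not pass (adjusted p = 0.272). The 18 tested genes of TGF-beta signalling held no call, and their median of 0.05 turned negative with library totals as scaling and on the TPM scale.

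**Figure D2:**
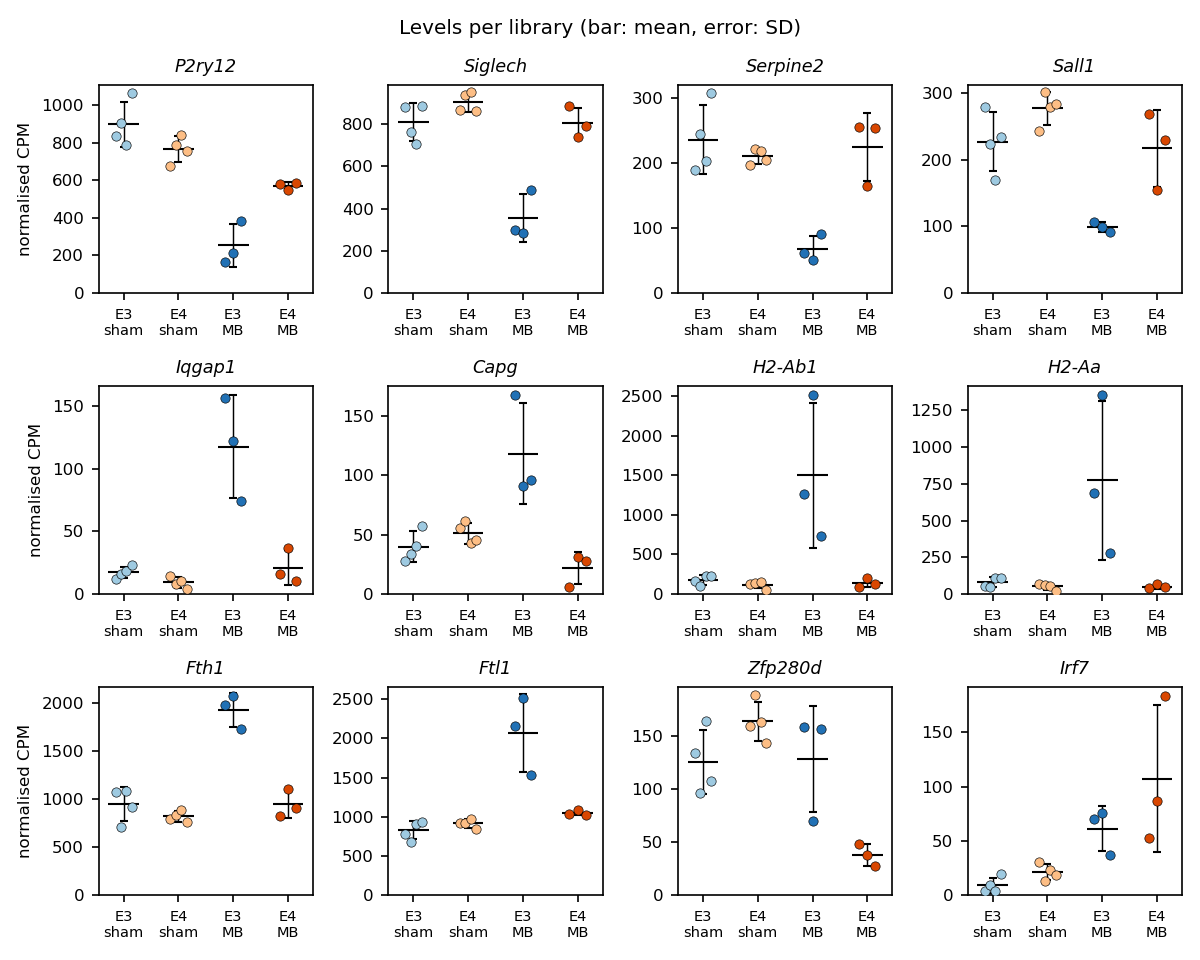
Normalised CPM (y axis, from 0) of 12 genes in each of the 14 libraries, by genotype and treatment (x axis), with points for libraries, bars for means and error bars for SD. For P2ry12, Siglech, Serpine2 and Sall1 the APOE3 microbead libraries are the lowest group, for Iqgap1, H2-Ab1, H2-Aa, Fth1 and Ftl1 the highest, while for Zfp280d the APOE4 microbead libraries are the lowest.

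Other genes rose that the homeostatic list does not hold. Hpgd, which breaks down prostaglandins, had 4.52, 6.68 and 7.10 CPM in APOE3 and 50.5, 24.9 and 25.9 in APOE4, the largest log2 fold change among the higher genes (2.37 ± 0.43, adjusted p = 0.00518). Its sham means of 100.2 and 86.7 were above both. Atp8a2, a lipid flippase, had 18.1, 17.8 and 39.1 CPM in APOE3 and 135, 84.7 and 102 in APOE4 (2.11 ± 0.32, adjusted p = 0.000937), with sham means of 105 and 103. Ctsf, the lysosomal protease cathepsin F, had 31.7, 70.1 and 78.1 CPM against 186, 113 and 169 (1.34 ± 0.27, adjusted p = 0.0121), and was the only one of 53 tested lysosome and phagocytosis genes that rose. That list's median was -0.00, and its sign turned in 10 alternatives.

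Members of the integrin and adhesion list rose in part. Of 25 tested, 4 rose and none fell (median 0.35), against 0.223% higher and 0.355% lower among all genes tested. They were Selplg, already described and also on the homeostatic list, and the transmembrane protein gene Plxdc2 (log2 fold change 1.11, adjusted p = 0.0262). The others were the cell adhesion molecule Cadm1 (1.76, adjusted p = 0.0306) and Csmd3 (1.72, adjusted p = 0.0277). The collagen gene Col27a1 (1.41, adjusted p = 0.0140), Srgap2, a regulator of Rac at the membrane (0.90, adjusted p = 0.0277), and Tubgcp5, a component of the gamma-tubulin complex (1.25, adjusted p = 0.0278), rose as well. Without APOE3 library 1 or 2, or without APOE4 library 1 or 3, no member of the integrin and adhesion list was called.

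Lower genes in APOE4 included 4 of the disease-associated state. Of 37 tested members (43 on the list), 4 fell and none rose, against 0.355% lower and 0.223% higher among all genes tested. Of the 37, 31 had a negative log2 fold change and the median was -0.98. In 15 of the 37, APOE4 libraries were all below APOE3 libraries, against 7.19% of all genes tested. The summed CPM was 24338, 31062 and 21557 in APOE3 and 17301, 19399 and 19900.3 in APOE4, and sham libraries lay between 12148 and 14831. Both microbead groups were thus above sham, APOE3 by more. The 4 that passed were Capg, an actin-capping protein, Lilrb4a, an inhibitory receptor, and the ferritins Fth1 and Ftl1. Between 1 and 8 members were called without single microbead libraries, the fewest without APOE4 library 1 or 3, and none without both APOE3 libraries 1 and 2 (median -0.25). Both this list and the monocyte list summed higher in APOE3. This list was highest in APOE3 library 2 and APOE4 library 3, the monocyte list in APOE3 library 1 and APOE4 library 2. Apart from Fn1, the monocyte list was highest in library 2 of both genotypes. With the monocyte sums as a covariate no member was called and the median was -0.24.

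The genes best known for that state had large differences that did not pass, though each did in some alternatives. Lgals3 gave 235, 182 and 142 CPM in APOE3 and 6.05, 6.64 and 24.2 in APOE4 (log2 fold change -3.88 ± 0.81, adjusted p = 0.0774). Spp1 gave 391, 399 and 245 CPM against 0, 74.7 and 1.73 (-3.69 ± 0.85, adjusted p = 0.118). Gpnmb gave 379.9, 479.6 and 231 CPM against 10.1, 71.4 and 79.5 (-2.73 ± 0.65, adjusted p = 0.118). Over the alternatives the adjusted p of Lgals3 ran from 0.000433 to 0.99, that of Spp1 from 8.18e-09 (without APOE4 library 2) to 0.99 and that of Gpnmb from 0.00983 to 0.99. In all 3 genes the APOE3 libraries stood above the APOE4 ones, and macrophages recruited from blood express them too. Other genes of the state differed less: Cd63, a lysosomal tetraspanin, by -0.69 (adjusted p = 0.141), Clec7a, a receptor for fungal glucans, by -1.03 (adjusted p = 0.168), Itgax, the integrin chain CD11c, by -1.19 (adjusted p = 0.419), Axl, a receptor for dying cells, by -0.64 (adjusted p = 0.344) and Cd72 by -0.59 (adjusted p = 0.454). C4b, a complement component, gave 466, 552 and 604 CPM in APOE3 and 139, 331 and 275 in APOE4 (-1.12, adjusted p = 0.252), and reads of it may be shared with its near copy C4a. Sham means of C4b were 20.5 and 10.6, so that it was far above sham in both genotypes.

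**Figure D3:**
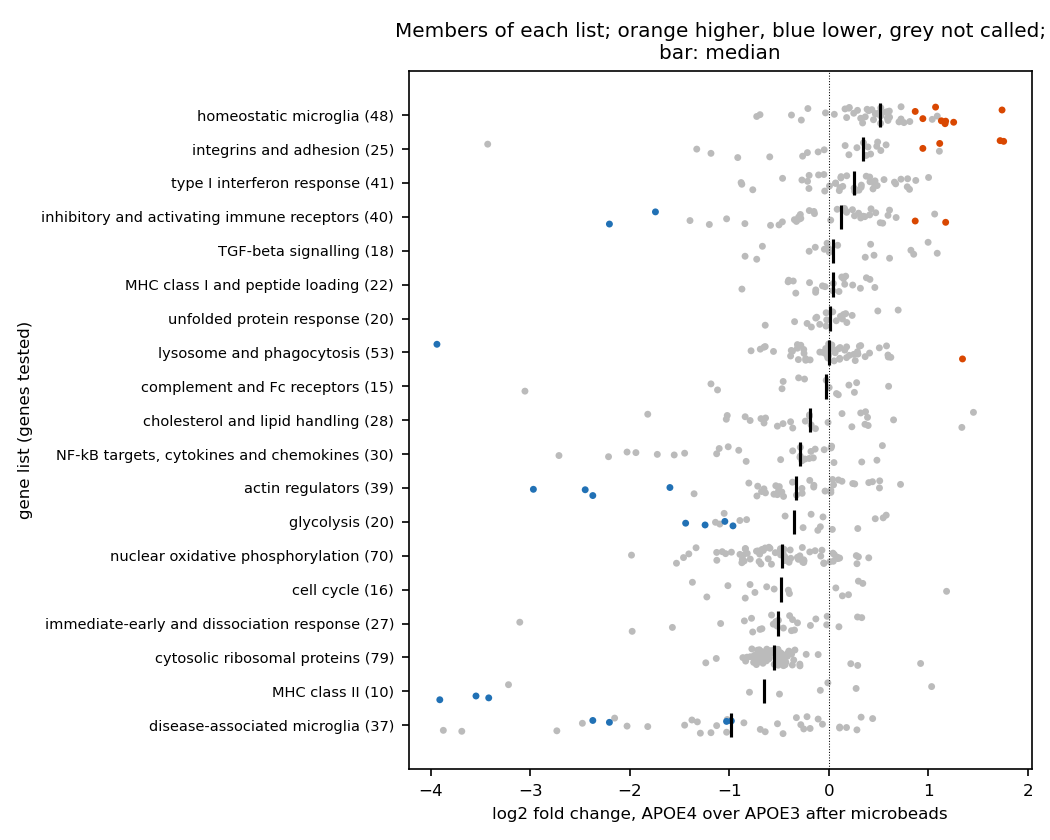
Log2 fold change of APOE4 over APOE3 after microbeads (x axis) for each tested member of 19 gene lists (y axis, ordered by the median, with the number tested), in grey where not called, orange where higher and blue where lower, with a bar at the median. The homeostatic list lies farthest to the right with a median of 0.52 and the disease-associated list farthest to the left with -0.98.

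Genes that present antigen to helper T cells fell. H2-Ab1, a chain of MHC class II (chr17:34257689-34269419 in GRCm38), gave 1259.6, 2515 and 733 CPM in APOE3 and 92.8, 199 and 128 in APOE4 (log2 fold change -3.42 ± 0.54, adjusted p = 0.0140). Its partner chain H2-Aa gave 685, 1353 and 282 CPM against 40.4, 66.4 and 46.7 (-3.91 ± 0.62, adjusted p = 0.0165). H2-Eb1 gave 534, 1187 and 204 CPM against 30.3, 88.0 and 44.9 (-3.55 ± 0.67, adjusted p = 0.0474), a call that was lost in 20 of 29 alternatives. The 3 genes had APOE4 levels near sham, where H2-Ab1 had means of 181 and 119. In each, APOE3 library 3, with the lowest monocyte sum of its group, was the lowest APOE3 library. The highest was APOE3 library 2, where the monocyte sum was highest apart from Fn1. With Fn1 counted, that sum was highest in library 1. Of 10 tested class II genes, 3 fell and none rose, against 0.355% lower and 0.223% higher among all genes tested. Cd74, the invariant chain, did not pass (-3.22 ± 0.63, adjusted p = 0.0609). Without APOE3 library 1, or APOE4 library 1 or 3, none of the 10 was called, and 6 were without APOE3 library 3. With the monocyte covariate none was called, and the median of the 10 was -0.29 against -0.65. The 22 class I and peptide loading genes held no call and had a median of 0.04, whose sign turned in 8 alternatives.

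Promoters are shown for the class II genes H2-Aa and H2-Eb1, since the regulation of such genes is known to run through short elements before the start. The sequences are the 250 bases before the RefSeq start in GRCm38.p6, on the gene's strand, with the Y box (CTGATTGG) in capitals. H2-Aa lies at chr17:34287824-34288073 on the minus strand and H2-Eb1 at chr17:34305617-34305866 on the plus strand.
H2-Aa: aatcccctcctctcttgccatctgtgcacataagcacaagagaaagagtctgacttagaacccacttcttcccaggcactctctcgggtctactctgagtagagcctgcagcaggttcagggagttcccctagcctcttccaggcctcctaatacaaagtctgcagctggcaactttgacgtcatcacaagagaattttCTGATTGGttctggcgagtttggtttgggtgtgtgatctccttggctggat
H2-Eb1: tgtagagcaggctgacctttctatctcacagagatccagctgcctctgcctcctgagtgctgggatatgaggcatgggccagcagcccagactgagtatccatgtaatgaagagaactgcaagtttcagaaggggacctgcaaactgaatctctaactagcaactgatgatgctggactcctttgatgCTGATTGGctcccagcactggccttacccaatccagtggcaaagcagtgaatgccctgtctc
The Y box begins 51 bases before the start in H2-Aa and 62 bases before it in H2-Eb1. The letters were searched on both strands, and 3.83% of 32851 promoters of the same length hold them. Of the 35 called genes with a promoter in the table, 3 did, the other being Fth1. The called class II gene H2-Ab1 was not among these 3, which can mean no match or no promoter in the table. A match describes the letters and is no sign of binding.

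Both ferritin genes, Txn1 and Prdx1 fell. Fth1, the ferritin heavy chain, gave 1974, 2069.7 and 1726 CPM in APOE3 and 817, 1103 and 907 in APOE4 (log2 fold change -1.03 ± 0.19, adjusted p = 0.00577). Ftl1, the ferritin light chain, gave 2162, 2516 and 1529 CPM against 1033, 1085 and 1028 (-0.98, adjusted p = 0.0106). In both the APOE4 libraries stood near the sham means, 946 and 818 for Fth1 and 828 and 915 for Ftl1. Thioredoxin (Txn1), which reduces protein disulfides, gave 63.3, 87.9 and 42.6 CPM against 12.1, 18.3 and 6.91 (-2.37 ± 0.44, adjusted p = 0.00568). Peroxiredoxin 1 (Prdx1), an enzyme against peroxides that was named after its values were seen, was lower by a log2 fold change of -1.13 (adjusted p = 0.0199). Ferritin and thioredoxin genes have processed pseudogenes, whose reads such estimates can share with them.

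Glycolysis genes fell at 4 of 20 tested members, and none rose, against 0.355% lower and 0.223% higher among all genes tested. Tpi1 (triosephosphate isomerase) had 154, 152 and 176 CPM in APOE3 and 60.5, 79.7 and 62.2 in APOE4 (log2 fold change -1.24, adjusted p = 0.00809). Eno1 (enolase) had a log2 fold change of -1.05 (adjusted p = 0.0134), Pgk1 (phosphoglycerate kinase) of -1.44 (adjusted p = 0.0228) and Aldoa (aldolase A) of -0.96 (adjusted p = 0.0372). The list's median was -0.35, and without single microbead libraries 0 to 4 members were called, none without APOE4 library 1. The promoters of Prdx1 and Pgk1 are shown because the oxidant response and the low-oxygen response are known to act on such genes through short elements. Capitals mark the AP-1 letters (TGANTCA) in Prdx1 at chr4:116685349-116685598, plus strand, and the hypoxia response letters (ACGTG, in either strand) in Pgk1 at chrX:106186850-106187099, plus strand.
Prdx1: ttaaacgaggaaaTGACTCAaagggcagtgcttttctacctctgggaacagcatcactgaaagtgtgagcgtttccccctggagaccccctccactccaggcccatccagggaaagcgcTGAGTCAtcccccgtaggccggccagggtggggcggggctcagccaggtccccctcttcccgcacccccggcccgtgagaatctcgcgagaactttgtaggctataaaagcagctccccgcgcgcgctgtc
Pgk1: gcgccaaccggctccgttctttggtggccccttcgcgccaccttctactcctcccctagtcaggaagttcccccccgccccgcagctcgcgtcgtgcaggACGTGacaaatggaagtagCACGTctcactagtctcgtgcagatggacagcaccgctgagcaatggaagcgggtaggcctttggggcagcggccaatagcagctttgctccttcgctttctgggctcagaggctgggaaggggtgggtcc
The AP-1 letters stand in 6.75% of all 32851 promoters and in 4 of the 35 called genes' promoters, and the hypoxia letters in 16.6% of all and in 7 of the 35. These shares describe letters in a window and say nothing of the factors.

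Cytoskeletal genes fell. Of 39 tested genes on the actin regulator list, which also holds the intermediate filament gene Vim, 4 fell and none rose. Among all genes tested, 0.355% were lower and 0.223% higher. Iqgap1, a scaffold that links actin to small GTPases, gave 156, 122 and 74.6 CPM in APOE3 and 16.1, 36.5 and 10.4 in APOE4 (log2 fold change -2.45 ± 0.39, adjusted p = 0.00125). Capg gave 167, 91.2 and 95.9 CPM against 6.05, 31.6 and 27.6 (-2.37 ± 0.38, adjusted p = 0.00125). Vimentin (Vim), an intermediate filament of blood-derived myeloid and glial cells, gave 142, 157 and 49.7 CPM against 8.07, 26.6 and 8.64 (-2.97, adjusted p = 0.0419), and transgelin 2 (Tagln2) fell by 1.60 (adjusted p = 0.0121). Filamin A (Flna), an actin crosslinker, fell by 1.47 (adjusted p = 0.0140). Anxa2, a membrane-binding annexin, and Fxyd5, a subunit that modifies the sodium pump, were named after their values were seen and fell by 2.69 (adjusted p = 0.0303) and 2.27 (adjusted p = 0.0376). Of the actin regulator list, 2 members were called without APOE3 library 1 or 2 or without APOE4 library 1 or 3. With the monocyte covariate, Iqgap1 stood at -1.16, Capg at -1.36, Anxa2 at -0.36 and Fxyd5 at -0.52, and none passed.

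Plbd1, Ms4a7, Pstpip1, Lilrb4a, Fgr and Lrg1 fell too. Plbd1, a phospholipase of myeloid granules, gave 54.3, 102 and 40.8 CPM in APOE3 and 4.04, 6.64 and 1.73 in APOE4 (log2 fold change -3.94 ± 0.61, adjusted p = 0.000937). Its sham means were 2.76 and 1.78. Ms4a7, a membrane protein of macrophages at the brain's borders and of recruited ones, fell by 2.06 (adjusted p = 0.00518), and Pstpip1, an adaptor to the cytoskeleton, by 2.12 (adjusted p = 0.00518). The inhibitory receptor Lilrb4a fell by 2.21 (adjusted p = 0.0191), with a near copy in the genome that can share its reads, and Fgr, a Src-family kinase, by 1.74 (adjusted p = 0.0405). Of 40 tested genes on the inhibitory and activating immune receptor list, which also holds the kinase gene Fgr, these 2 fell and Siglech and Cd33 rose. The list's median of 0.12 turned sign in 5 alternatives. Lrg1, a secreted glycoprotein, was at 40.7, 30.0 and 23.1 CPM in APOE3 and at 0 in all APOE4 microbead libraries. With 58 reads against 0, it was at least 17.0-fold lower, measured against a floor of 3 reads over the group (adjusted p = 0.0277).

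Zfp280d, a zinc finger gene (chr9:72274860-72363777), had a pattern of its own. It gave 158, 70.1 and 156 CPM in APOE3 and 48.4, 38.2 and 27.6 in APOE4 microbead libraries (log2 fold change -1.73 ± 0.31, adjusted p = 0.0043). The sham means were 126 and 164, so that here the APOE4 group stood apart from sham and the APOE3 group did not. Its size was -1.81 with the monocyte covariate (adjusted p = 0.99) and -2.04 without APOE3 libraries 1 and 2 (adjusted p = 0.00654), where it remained called together with Gm5905.

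**Figure D4:**
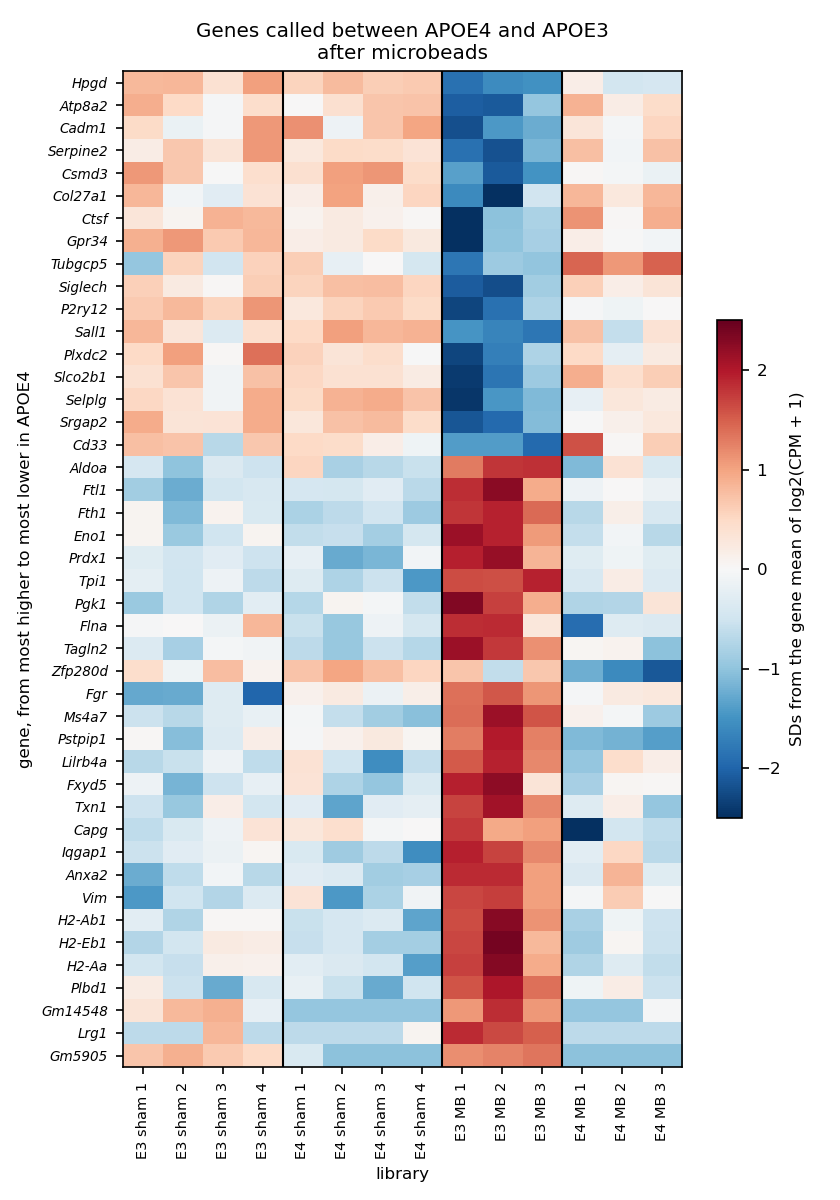
The 44 called genes (rows, ordered from highest to lowest log2 fold change of APOE4 over APOE3 after microbeads) in the 14 libraries (columns), coloured by SDs from the gene's mean of log2(CPM + 1). APOE3 microbead libraries stand out from the other groups in most rows, and library 3 is the one of them nearest to the APOE4 microbead mean for 34 of 44 genes.

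The called genes were set against the sham comparison, which shares no library with this one. There, 1 of 7609 genes passed (0.0131%), the processed pseudogene Gm5905, and 335 had an unadjusted p under 0.05. That single call was lost without any of the 8 sham or 3 APOE3 microbead libraries. Of the 44 genes, 22 had the same sign in sham, 4 had an unadjusted p under 0.05 there, and the median size of the log2 fold change was 0.22 against 1.73 after microbeads. The mean of the APOE4 microbead libraries lay within the range of the APOE3 sham libraries for 24 of the 44 genes and within that of the APOE4 sham libraries for 19, whereas the APOE3 microbead mean lay within the APOE3 sham range for 1. APOE3 microbead library 3 was the one nearest to the APOE4 mean for 34 of the 44. The test of the difference between both genotype differences called 7 genes (0.092%), all among the 44. For Serpine2, Atp8a2, Hpgd and Gpr34 the APOE4 minus APOE3 difference was higher after microbeads than in sham, and for Capg, Zfp280d and Fgr lower. In sham, the log2 fold change of each of these 7 had the opposite sign. For the other 37 a difference from sham was not shown. That count of 7 was 3 without APOE3 microbead library 1, 4 without library 2, 30 without library 3, 0 without APOE4 microbead library 1, 4 without library 3, 3 without APOE3 sham library 1 and 0 without APOE4 sham library 1 or 2.

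Gm5905 (chr7:141177885-141178464) was at 33.9, 38.9 and 46.2 CPM in APOE3 and at 0 in the 3 APOE4 microbead libraries, 76 reads against 0, and so at least 22.3-fold lower against the floor of 3 reads over the group (adjusted p = 0.000457). In sham it had means of 15.4 and 0.448 CPM (adjusted p = 0.0458). Gm14548, a gene with near-identical relatives in its family so that its counts are uncertain, had 24.9, 85.7 and 24.9 CPM against 0, 0 and 3.46 after microbeads and sham means of 10.8 and 0.

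**Figure D5:**
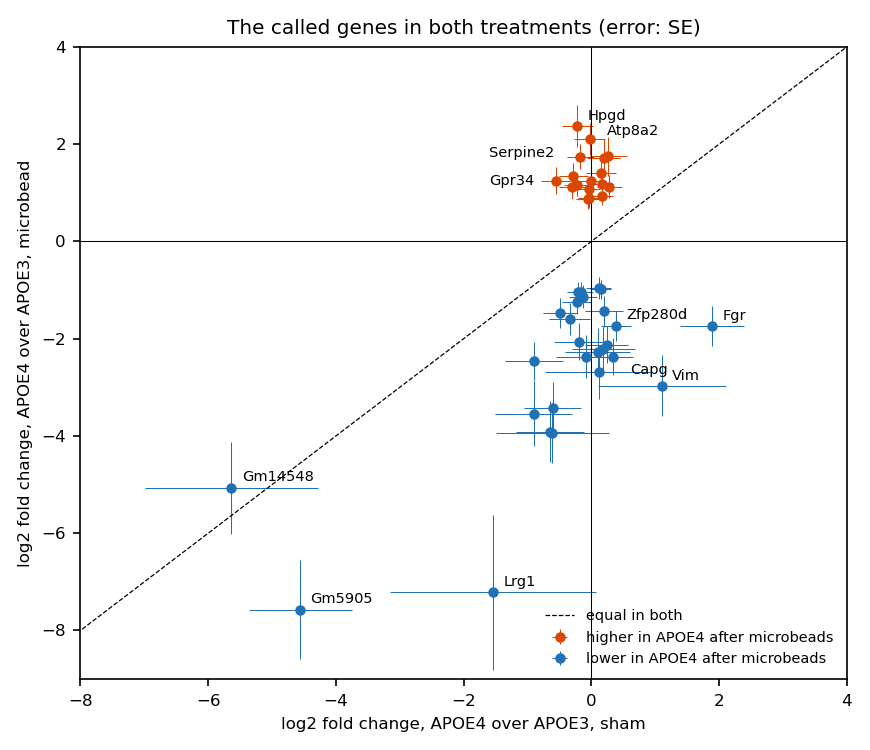
Log2 fold change of APOE4 over APOE3 in sham (x axis) and after microbeads (y axis) for the 44 called genes, with error bars of 1 SE and a dashed line where both are equal. The median size on the x axis is 0.22 against 1.73 on the y axis, while Gm5905, Gm14548 and Lrg1 have negative values on both, and the 7 genes whose difference was called are named.

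Interferon genes held no call and varied between libraries. Of 41 tested type I interferon response genes none passed, 1 had an unadjusted p under 0.05, and the median of 0.25 turned to -0.04 without APOE4 library 3. Irf7, a master factor of the response, gave 70.1, 75.7 and 37.3 CPM in APOE3 and 52.5, 86.4 and 183 in APOE4 (log2 fold change 0.81 ± 0.43, adjusted p = 0.57). The summed CPM of the list was 2886, 2957 and 1683 in APOE3 and 1651, 2958 and 3916 in APOE4, and the groups overlapped. Without APOE3 library 3 the median was 0.00, and without APOE3 libraries 1 and 2 it was 0.84. With the monocyte covariate it was 1.19, with no call.

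Housekeeping lists leaned lower in APOE4 with no single gene passing. Of 79 cytosolic ribosomal protein genes 76 had a negative log2 fold change and 51 had all APOE4 libraries below all APOE3 ones, against 7.19% of all genes tested (median -0.55). Rps3a1, a protein of the small subunit, gave 407, 417 and 368 CPM in APOE3 and 291, 179 and 240.2 in APOE4 (-0.75 ± 0.21, adjusted p = 0.109). Of 70 nuclear oxidative phosphorylation genes 59 were negative (median -0.48). The summed ribosomal CPM of 21721, 20527 and 17612 in APOE3 and 15270.3, 12893 and 12954 in APOE4 stood above the sham range of 8639 to 13020.1 in all but the APOE4 libraries 2 and 3. Genes of the NF-kB and chemokine list (30, median -0.29), immediate-early genes (27, -0.51), cholesterol and lipid handling (28, -0.19), complement and Fc receptors (15, -0.03), cell cycle (16, -0.48) and the unfolded protein response (20, 0.01) held no call. Without APOE3 library 3, 4 genes of the NF-kB list, 1 immediate-early gene, 1 cholesterol gene, 1 ribosomal protein gene and 2 complement and Fc receptor genes passed as lower, and 1 TGF-beta signalling gene passed as higher. Without APOE4 library 2, 2 nuclear oxidative phosphorylation genes passed as lower. The cholesterol median turned positive without APOE3 libraries 1 and 2, and those of complement and the unfolded protein response also turned sign in 1 and 10 alternatives.

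Marker sums of some other cell types also differed between the microbead groups, without a test. The B cell list summed to 124, 206 and 129.6 CPM in APOE3 and 283, 226 and 209 in APOE4, the neutrophil list to 206, 214 and 329 against 373, 335 and 459.7, and the oligodendrocyte list to 58.8, 77.9 and 85.2 against 90.8, 99.7 and 126. In these 3 lists the APOE4 libraries all stood above the APOE3 ones. The pigment epithelium and melanocyte list summed to 40.7, 36.7 and 35.5 CPM in APOE3 and 34.3, 18.3 and 24.2 in APOE4, all APOE4 libraries below. The part of these cells in the differences above was not tested. The rod photoreceptor list, with 231 to 895 CPM in APOE3 and 342 to 839.8 in APOE4, and the border-associated macrophage list, with 261 to 419 against 181 to 325, overlapped between genotypes. Neutrophil Ly6g and Ltf, T and NK cell Trac, Trbc2, Nkg7, Gzma and Gzmb, B cell Igkc, and the globin genes Hba-a1, Hba-a2, Hbb-bs and Hbb-bt were at 0 in all 6 microbead libraries.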

How the data were processed

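RNA of 14 libraries of sorted retinal microglia was analysed. The submitters' processing notes name Salmon 1.4.0, R 4.0.3, DESeq2 1.30.1 and the build mm10. The authors deposited estimated counts and effective lengths per transcript for each library, and a series table of TPM (length-scaled relative abundance) for each gene. As a check of the labels, TPM computed anew from a library equalled that library's deposited column within 1% for 99.2% to 99.4% of genes; with another library's column at most 1.36% did.

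Of 116945 transcripts, 116023 had a gene in GENCODE M21 (GRCm38). The deposited estimated counts were summed per gene and rounded, and genes were kept with filterByExpr (minimum count 10, minimum total 15), which left 7609 of the 28197 detected. The edgeR 4.0.16 quasi-likelihood test (robust, TMM scaling, R 4.3.3) was run with 4 group means over all 14 libraries and Benjamini-Hochberg adjustment over all genes tested. The common biological coefficient of variation was 0.275. CPM are TMM-normalised. The SE is the log2 fold change divided by the square root of the F statistic. Alternatives were DESeq2 1.42.0, limma 3.58.1 (limma-voom, and limma on log2(TPM + 1)), other filters, scalings, covariates and left-out libraries.

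The libraries, lists, rules and tests were chosen with earlier results of these data known. Named genes were up to 15 higher and 15 lower genes of smallest adjusted p, up to 4 per list of smallest p, the 5 largest changes and a fixed set of 20 genes. Lists are described by counts and medians, not tested. Promoters are RefSeq sequences (GRCm38.p6), matched by symbol for 35 of the 44 called genes. Each library's total limits the precision, and p-values cover the spread between libraries only.

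On simulated counts with 7062 genes, 100 of them changed 2-fold and 100 changed 4-fold, edgeR recovered 15 and 85 in the APOE4 against APOE3 microbead comparison, with 5 false calls in all.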

Additional observations from a re-analysis of the deposited data

Results flagged for a closer look

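For 7 genes, the test of the difference between both genotype differences passed, so that the APOE4 minus APOE3 log2 difference after microbeads differed from that in sham. It was larger after microbeads by 1.91 for Serpine2, 2.13 for Atp8a2, 2.59 for Hpgd and 1.81 for Gpr34. It was lower by a log2 difference of -2.71 for Capg, -2.12 for Zfp280d and -3.64 for Fgr.

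In groups of 4 sham libraries, 10 of 132 groups examined held 1 library far from the other 3, where chance gives about 1 in 20. APOE4 sham library 1 stood apart with a Gm5905 level of 1.79 CPM, an Aldoa level of 244 CPM and a rod marker sum of 1918 CPM. The Gm5905 level is 1 read, against 0 in the other APOE4 sham libraries. APOE4 sham library 3 stood apart in the summed CPM of the actin regulators (8407) and of the B cell markers (369.9). The others in APOE4 sham were Txn1 in library 2 (4.97 CPM) and Lrg1 in library 4 (1.89 CPM, also 1 read). In APOE3 sham they were Lrg1 and Cd33 in library 3 (8.13 and 252 CPM) and Flna in library 4 (103 CPM).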

How the results depend on the processing

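Against 44 genes called between APOE4 and APOE3 after microbeads, the count was 74 with DESeq2 (30 shared, over 2150 genes left by its filtering), 24 with length offsets, 14 with library totals, 8 with limma on log2(TPM + 1) (all lower, with the median over all genes at -0.14), 29 with only the compared groups in the fit (3 higher, 26 lower), 124 without the low-count filter, 0 with the monocyte covariate and 2 without both APOE3 libraries 1 and 2. With length offsets the split was 8 higher and 16 lower, and without robust estimation 12 and 37. Leaving out each library gave 11 to 121. The sham count of 1 was 8 without the low-count filter and 0 with length offsets, library totals, limma-voom, either covariate, only the compared groups, the satellite genes removed, the stricter filter, thinning, no robust estimation and without both APOE3 libraries, and 0 to 1 with single libraries left out. Each of those fits had at least 277 genes at an unadjusted p under 0.05, apart from the stricter filter with 221. The count of 7 genes whose genotype difference differed from sham was 58 with DESeq2, 0 with length offsets (556 at an unadjusted p under 0.05), 2 with library totals, 1 with TPM, 0 with the monocyte covariate (397 unadjusted), 38 without the filter, 11 with the stricter filter, 1 without both APOE3 libraries, and 0 to 30 with single libraries left out. The cause of these changes was not tested.

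The labels do not say that the replicate numbers pair the libraries. Deviations of same-numbered APOE3 and APOE4 microbead libraries from their group means correlated at -0.00357, -0.0406 and 0.00689. With 3 shallow libraries per group these values cannot show whether the libraries pair. With a replicate block the counts were 33 (30 shared with the 44), 0 in sham and 3 for the difference from sham. With 3 libraries per group and 226374 to 447190 reads outside satellite genes, low genes were not testable. No alternative in which a called gene was tested reversed it. The fit with only the compared groups was not run for the difference from sham, which needs all 4 groups.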

Other observations

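Of the 44 called genes, 10 lie on chromosome 7, which holds Apoe (chr7:19696109-19699188, GRCm38). That is 22.7% of the called genes, against 614 of 7609 genes tested, or 8.07%. They are Gm5905, Iqgap1, Siglech, Slco2b1, Ftl1, Gm14548, Tubgcp5, Aldoa, Fxyd5 and Cd33, whose starts lie from -15.8 to 121 megabases from the start of Apoe, with Fxyd5 at 11.3 and Cd33 at 23.8. In sham, the log2 difference of Siglech was 0.16, of Slco2b1 -0.03, of Tubgcp5 -0.00, of Iqgap1 -0.90, of Ftl1 0.14, of Aldoa 0.12, of Fxyd5 0.10 and of Cd33 -0.05, and none of these 8 passed in edgeR. That of Gm14548 was -5.64 (adjusted p = 0.532) and that of Gm5905 -4.56 (adjusted p = 0.0458), the only one of the 10 that passed, and both fitted values rest on APOE4 libraries at or near 0 and are not sizes. This was noticed after the calls were seen and was not tested.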
